A study of Mus musculus with 8 samples.

Results

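B cell fate factors and genes of the pre-B cell receptor were followed through 4 progenitor populations of mouse bone marrow. The 10 genes were chosen by symbol: Ebf1, Pax5, Foxo1, Pou2af1, Vpreb1, Vpreb3, Igll1, Cd79a, Cd79b and Blnk. All 10 were found among the 22878 genes of the tables, each as 1 RefSeq transcript, and all 10 were among the 13619 genes tested. RNA was sequenced from 2 libraries each of PD-1+ progenitors, which give innate lymphoid cells (ILCs) but not the lymphoid tissue inducer (LTi) kind, of CCR6+ LTi progenitors, of the ChILP (common progenitor of helper-like ILCs, whose gate holds both) and of the CLP (common lymphoid progenitor). All came from bone marrow of C57BL/6 mice, an inbred laboratory strain; the labels give no age, sex or treatment. PD-1+ cells were lineage-negative, CD127+, Flt3-, integrin α4β7+, ST2-, Kit+, PD-1+ and CCR6-. CCR6+ cells came from the same gate but were PD-1- and CCR6+. ChILP were lineage-negative, CD127+, Flt3-, integrin α4β7+, ST2- and Kit+. CLP were lineage-negative, CD127+, Flt3+, integrin α4β7-, Sca-1+ and Kit+. PD-1+ and CCR6+ cells had been enriched on a magnetic column that captured integrin α4β7+ cells, and ChILP and CLP by depletion of lineage-positive cells, so population and route of enrichment cannot be told apart in any comparison across these 2 routes.

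B cell development starts in CLP when Ebf1, with E2A and Foxo1, opens the B lineage programme, which Pax5 then fixes. A rearranged heavy chain is tested in the pre-B cell receptor, where it pairs with a surrogate light chain made of VpreB1 and λ5 (Igll1) and signals through Igα and Igβ (Cd79a and Cd79b) and the adaptor BLNK. Surrogate light chain genes are silenced as B cells mature. ILC progenitors derive from CLP but leave this path.

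Promoters of these genes are shown because the 10 genes all lay lower in ChILP than in CLP. RefSeq (GRCm38.p6) gave promoter windows of 300 bases, 250 before and 50 after the start, for 9 of the 10 genes; Cd79b was not matched. The tables' own build is mm9, so these coordinates were used for the sequences only. Each of 4 motifs was searched on both strands. The octamer ATGCAAAT, bound by the Oct factors for which Pou2af1 is a coactivator, was found in the windows of Vpreb3 and Blnk, and in 1.74% of all 32851 promoter windows. The E-box CAGGTG, a site of E2A proteins, was found in those of Cd79a, Vpreb1, Igll1 and Blnk, and in 20.2% of all windows. The EBF1 palindrome, TCCC and GGGA with 2 bases of any kind between them, was found in the window of Foxo1, and in 0.904% of all. The forkhead motif TGTTTAC was found in none of the 9 genes and in 3.65% of all windows. No motif overlapped another in the 3 windows below, which are written 5′ to 3′ on the gene's strand with octamer and E-box matches, on either strand, in capitals. In Vpreb3 (chr10:75948050-75948349, plus strand) the octamer begins 45 bases before the start. In Blnk (chr19:40994172-40994471, minus strand) the octamer begins 130 bases and the E-box 160 bases before the start. In Cd79a (chr7:24897247-24897546, plus strand) the E-box begins 154 bases before the start.
Vpreb3 promoter: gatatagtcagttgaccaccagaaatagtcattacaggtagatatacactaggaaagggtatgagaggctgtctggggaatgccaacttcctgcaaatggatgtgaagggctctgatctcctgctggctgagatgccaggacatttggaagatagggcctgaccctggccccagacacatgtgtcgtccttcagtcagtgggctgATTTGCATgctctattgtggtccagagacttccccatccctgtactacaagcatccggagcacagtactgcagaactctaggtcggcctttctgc
Blnk promoter: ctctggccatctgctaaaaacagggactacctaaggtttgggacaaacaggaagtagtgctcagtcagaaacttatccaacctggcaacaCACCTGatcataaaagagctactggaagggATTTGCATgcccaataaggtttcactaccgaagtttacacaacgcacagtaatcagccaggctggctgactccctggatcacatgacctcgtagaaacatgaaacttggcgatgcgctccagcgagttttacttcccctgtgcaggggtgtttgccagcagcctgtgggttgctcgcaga
Cd79a promoter: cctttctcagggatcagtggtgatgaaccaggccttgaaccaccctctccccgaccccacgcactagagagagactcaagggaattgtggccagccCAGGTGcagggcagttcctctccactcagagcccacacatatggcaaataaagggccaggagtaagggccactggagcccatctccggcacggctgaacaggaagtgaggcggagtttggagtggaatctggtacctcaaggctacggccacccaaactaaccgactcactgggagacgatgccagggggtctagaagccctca
Such a match is a description of the letters, and binding was not measured.

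Libraries held 7685188 to 13997897 reads in genes. Nothing in the labels ties the 2 libraries of a group to different animals; every p-value therefore rests on library-to-library spread, part of which may be technical. Of the 9 genes of the sort gate, Flt3 stood at 5.10 to 10.35 RPKM (reads scaled by transcript length and library total) in the 6 libraries sorted as Flt3- and at 92.1 and 157.0 in CLP, while the 8 ILC progenitor genes, led by Id2 and Rora, summed to 245.7 to 1762 RPKM in the PD-1+, CCR6+ and ChILP libraries and to 47.9 and 48.4 in CLP. Pdcd1, which encodes PD-1, stood at 180.6 and 36.3 RPKM in PD-1+ cells and 0 and 1.10 in CCR6+ cells, and Ccr6 at 0 and 8.11 in PD-1+ cells and 84.2 and 23.6 in CCR6+ cells. Itgb7, which encodes the integrin β7 chain, stood at 173.6 to 237.1 RPKM in PD-1+ and CCR6+ libraries, 67.5 and 71.25 in ChILP, and 40.4 and 29.2 in CLP. Other gate genes did not follow the sort as closely. Kit, a gate marker of all 4 populations, stood at 29.15 and 8.21 RPKM in PD-1+ cells, 17.5 and 6.93 in CCR6+ cells, 33.3 and 42.03 in ChILP, and 28.5 and 31.5 in CLP. Ly6a (Sca-1), gated in CLP, stood at 39.6 and 62.4 RPKM in PD-1+ cells, 95.01 and 72.4 in CCR6+ cells, 4.89 and 10.6 in ChILP, and 30.1 and 31.4 in CLP. Libraries also differed in transcripts of mature marrow cells. Summed over 7 erythroid markers, led by Hba-a1 and Hbb-b2, levels were 32918 to 48344 RPKM in PD-1+ and CCR6+ libraries, 7026 and 1018 in ChILP replicates 1 and 2, and 5350 and 893 in CLP replicates 1 and 2. Summed over 8 markers of neutrophils and monocytes, led by Lyz2 and S100a8, they were 15919 to 34954.5 RPKM in PD-1+ and CCR6+ libraries, 6601 and 1430 in ChILP, and 5091 and 1139 in CLP. Early myeloid genes, led by Mpo and Elane, ran the other way, at 729.5 to 1703.6 RPKM in PD-1+ and CCR6+ libraries, 9704.7 and 8269.3 in ChILP, and 6904.4 and 6856.6 in CLP.

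Set against CLP, ChILP held less RNA of every one of the 10 genes, with no overlap between the 2 libraries of each group. The same held for 18.6% of all genes tested. In the fit the 10 genes lay lower by 1.87-fold for Cd79b to 21.1-fold for Blnk. In the PD-1+ and CCR6+ libraries part of the set was high again. Cd79a, Cd79b and Pax5 lay above both CLP libraries, as did 13.4% of all genes, but of them only Cd79b passed the test against CLP. The margin of Pax5 was small, 2.90 RPKM or more against 2.55 or less in CLP. Pou2af1 and Vpreb1 overlapped the CLP libraries, and Ebf1, Foxo1, Igll1, Vpreb3 and Blnk lay below them, as did 32.3% of all genes. Libraries are bulk, so fewer cells of a type and less RNA per cell cannot be told apart.

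**Figure D1:**
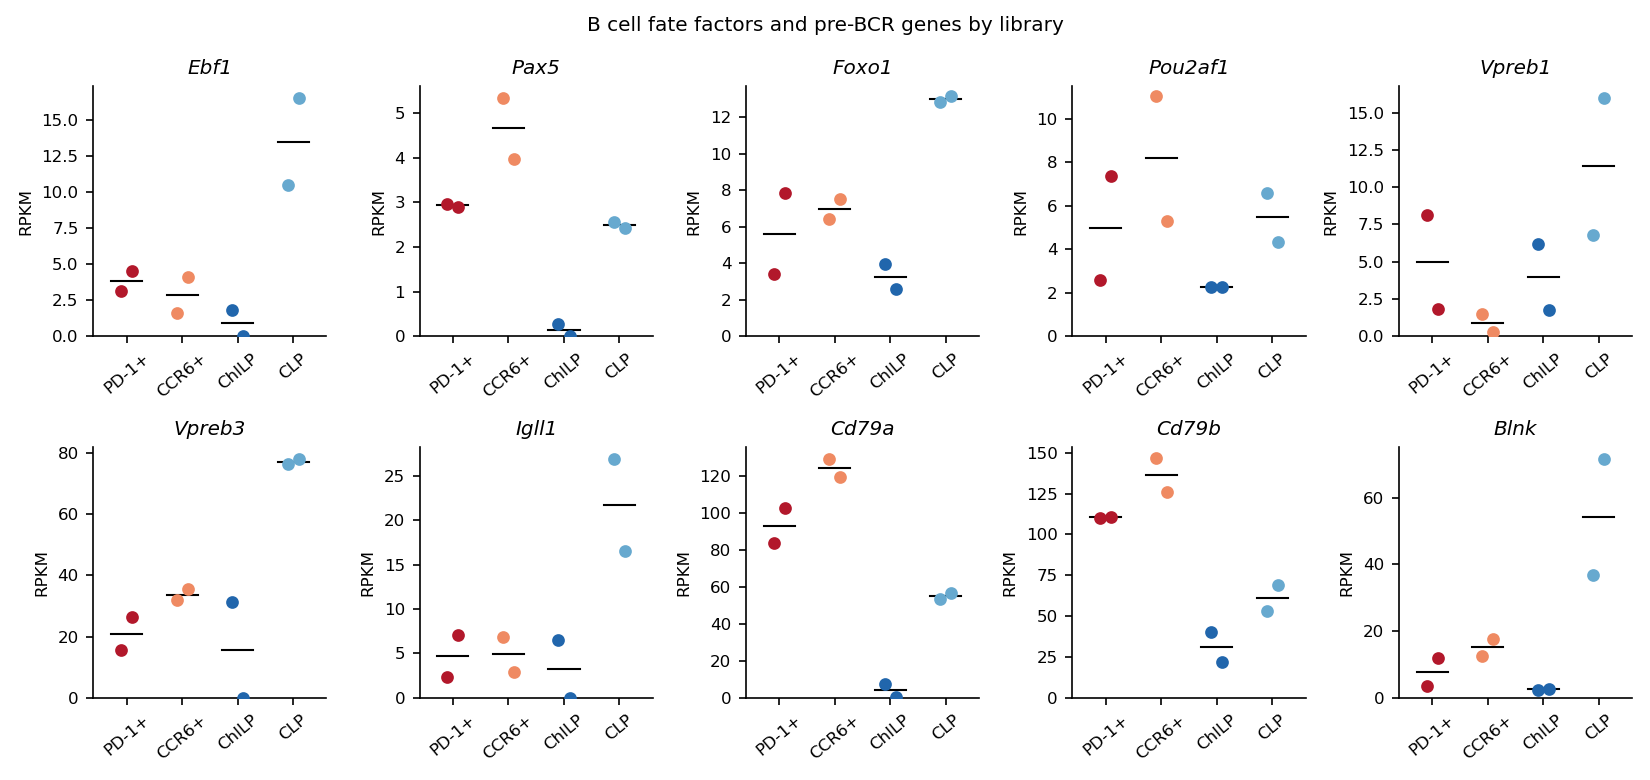
RPKM of each of the 10 genes (vertical axis, linear, from 0) in PD-1+, CCR6+, ChILP and CLP libraries; points are libraries (replicate 1 left, 2 right) and bars group means, n = 2 each. All 10 genes lie lower in both ChILP than in both CLP libraries, as do 18.6% of all genes tested. Cd79a and Cd79b are highest in the PD-1+ and CCR6+ libraries, at 83.4 RPKM or more.

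Fate factors come first. Ebf1 (NM_007897), the factor that opens the B lineage programme, stood at 3.16 and 4.50 RPKM in PD-1+ cells, 1.58 and 4.13 in CCR6+ cells, 1.805 and 0 in ChILP, and 10.5 and 16.6 in CLP. Both CLP libraries lay above all others; CCR6+ overlapped PD-1+ and ChILP, while PD-1+ lay above ChILP. Pax5 (NM_008782), which commits cells to the B lineage, stood at 2.96 and 2.90 RPKM in PD-1+ cells, 5.34 and 3.98 in CCR6+ cells, 0.272 and 0 in ChILP, and 2.55 and 2.43 in CLP. Its order was CCR6+, PD-1+, CLP and ChILP with no overlap between neighbours, though it rested on few reads, 52 to 70 per PD-1+ or CCR6+ library, 6 and 0 in ChILP and 33 and 43 in CLP. Foxo1 (NM_019739), a forkhead factor needed for early B cells, stood at 3.38 and 7.85 RPKM in PD-1+ cells, 6.42 and 7.53 in CCR6+ cells, 3.955 and 2.58 in ChILP, and 12.8 and 13.2 in CLP. CLP was again apart, while PD-1+ overlapped both CCR6+ and ChILP. Pou2af1 (NM_011136), the octamer coactivator of B cells, stood at 2.57 and 7.36 RPKM in PD-1+ cells, 11.1 and 5.32 in CCR6+ cells, 2.28 and 2.27 in ChILP, and 6.59 and 4.34 in CLP. ChILP was lowest without overlap, and the 3 other groups overlapped.

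Surrogate light chain genes and Vpreb3 had their highest means in CLP. Vpreb1 (NM_016982), one part of the surrogate light chain, stood at 8.15 and 1.84 RPKM in PD-1+ cells, 1.46 and 0.268 in CCR6+ cells, 6.20 and 1.77 in ChILP, and 6.81 and 16.0 in CLP. PD-1+ overlapped both CLP and ChILP, and CCR6+ was lowest; the lowest library held 3 reads. Igll1 (NM_001190325), which encodes λ5, the other part, stood at 2.37 and 7.003 RPKM in PD-1+ cells, 6.88 and 2.84 in CCR6+ cells, 6.545 and 0 in ChILP, and 26.9 and 16.5 in CLP. Only CLP was apart. Vpreb3 (NM_009514), a related protein that binds the heavy chain inside pre-B cells, stood at 15.5 and 26.4 RPKM in PD-1+ cells, 32.0 and 35.4 in CCR6+ cells, 31.3 and 0 in ChILP, and 76.5 and 78.0 in CLP. CLP lay above CCR6+ and CCR6+ above PD-1+ without overlap, and the ChILP libraries spanned the PD-1+ range. Vpreb2 (NM_016983), a near-identical copy of Vpreb1 that may share its reads, stood at 1.60 and 0 RPKM in PD-1+ cells, 0.872 and 0 in CCR6+ cells, 1.53 and 0 in ChILP, and 26.4 and 40.3 in CLP, so that the PD-1+ to CLP overlap of Vpreb1 was not shared by its copy.

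Receptor signal chains and the adaptor diverged from each other. Cd79a (NM_007655, Igα) stood at 83.4 and 102.4 RPKM in PD-1+ cells, 128.9 and 119.6 in CCR6+ cells, 7.43 and 0.537 in ChILP, and 53.4 and 56.7 in CLP. Cd79b (NM_008339, Igβ) stood at 110.0 and 110.9 RPKM in PD-1+ cells, 147.0 and 125.8 in CCR6+ cells, 40.5 and 22.0 in ChILP, and 53.1 and 69.1 in CLP. Both had the order CCR6+, PD-1+, CLP and ChILP with no overlap between neighbours, but Cd79b kept a level in ChILP that Cd79a did not. Per RPKM of Cd79b there were 0.758 and 0.924 RPKM of Cd79a in PD-1+ cells, 0.877 and 0.9505 in CCR6+ cells, 0.183 and 0.0244 in ChILP, and 1.005 and 0.821 in CLP. Blnk (NM_008528), the adaptor below the receptor, stood at 3.48 and 11.97 RPKM in PD-1+ cells, 12.4 and 17.6 in CCR6+ cells, 2.27 and 2.595 in ChILP, and 36.9 and 71.6 in CLP. CLP was far above the rest, and the order CLP, CCR6+, PD-1+ and ChILP held without overlap between neighbours.

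The 2 ChILP libraries differed in these genes. Replicate 2 had no read of Ebf1, Pax5, Vpreb3 or Igll1, and 3 reads, the limit that a count of 0 allows, would have given 0.0866, 0.161, 0.323 and 0.223 RPKM. Replicate 1 had 74, 6, 344 and 104 reads of them. Blnk and Pou2af1 stood alike in the 2 libraries. Replicate 1 was also the ChILP library with more erythroid and neutrophil transcripts and the lower sum of ILC progenitor genes, 467.3 against 820.3 RPKM in replicate 2; the part of this in the result was not tested. In CLP, erythroid markers differed between replicates in the same direction, and the 10 genes summed to 286.0 and 344.4 RPKM. All 10 genes lay higher in CLP than in ChILP, and whether these sums bear on the ChILP difference was not tested.

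ChILP against CLP is the step the study's design asked about. In edgeR's quasi-likelihood test, adjusted over all genes by Benjamini-Hochberg, none of the 10 genes passed an adjusted p of 0.05, where the background was 0.0220% of genes. At an unadjusted p under 0.05, 6 were lower in ChILP (Ebf1, Pax5, Foxo1, Cd79a, Cd79b and Blnk) and none higher, and 3.03% of all genes were lower by that rule. All 10 lay lower without overlap, and so did 18.6% of all genes. The median log2 fold change of the 10 genes was -2.47, beside 0.05 over all genes tested, and it was -5.45 without ChILP replicate 1 and -1.68 without ChILP replicate 2. The first of these fits keeps only ChILP replicate 2, without a read of Ebf1, Pax5, Vpreb3 or Igll1, whose fold changes there have no lower limit. Blnk came closest, with a log2 fold change of -4.40 (SE 0.65, adjusted p = 0.0815 with edgeR), then Cd79a at -3.72 (SE 0.85, adjusted p = 0.256) and Foxo1 at -1.94 (SE 0.45, adjusted p = 0.262). Ebf1 and Pax5 had larger errors, at -3.82 (SE 1.43) and -4.04 (SE 1.44), while Cd79b had the smallest change of all, -0.91 (SE 0.29). DESeq2's Wald test called 4 of the 10 lower (Pax5, Foxo1, Cd79a and Blnk), among 263 of 13619 genes called in either direction. By limma on log2(RPKM + 1), Cd79a and Blnk were called, among 54 genes. The Cd79a log2 fold change in edgeR was -6.60 without ChILP replicate 1 and -2.84 without ChILP replicate 2.

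Partner genes of the pathway followed in part; no gene of the 3 lists below passed over all genes in this comparison. Rearrangement genes, which act where antigen receptor segments are cut and joined, lay lower in all 3 cases, each at an unadjusted p under 0.05. Dntt averaged 63.7 RPKM in ChILP and 1133 in CLP, with a log2 fold change of -4.08 (SE 0.62, adjusted p = 0.0825 with edgeR), and Rag2 at 1.67 and 24.1 RPKM, with one of -3.77 (SE 0.79). Rag1, the other subunit of the recombinase, averaged 0.0493 RPKM in ChILP and 5.53 in CLP. At an unadjusted p under 0.05, 6 of 15 genes of receptor signalling lay lower, as did 3.03% of all genes, and none higher. Blk, a B lineage Src kinase, averaged 0.6255 RPKM in ChILP and 26.7 in CLP, Cd72, an inhibitory co-receptor, at 12.9 and 44.3, and Plcg2, a phospholipase below BLNK, at 23.3 and 56.9. Of 17 factors upstream of or beside Ebf1, 2 lay higher and 4 lower by that rule, which 2.79% of all genes met as higher. Mef2c, a lymphoid factor, averaged 6.74 RPKM in ChILP and 22.8 in CLP, and Tcf4, an E protein, 7.72 and 16.6, but Ikzf3 (Aiolos) averaged 18.8 RPKM in ChILP and 0.894 in CLP. Tcf3, which encodes the E2A proteins and was named after its value was seen, averaged 105.2 RPKM in ChILP and 116.0 in CLP (log2 fold change -0.08, SE 0.20).

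**Figure D2:**
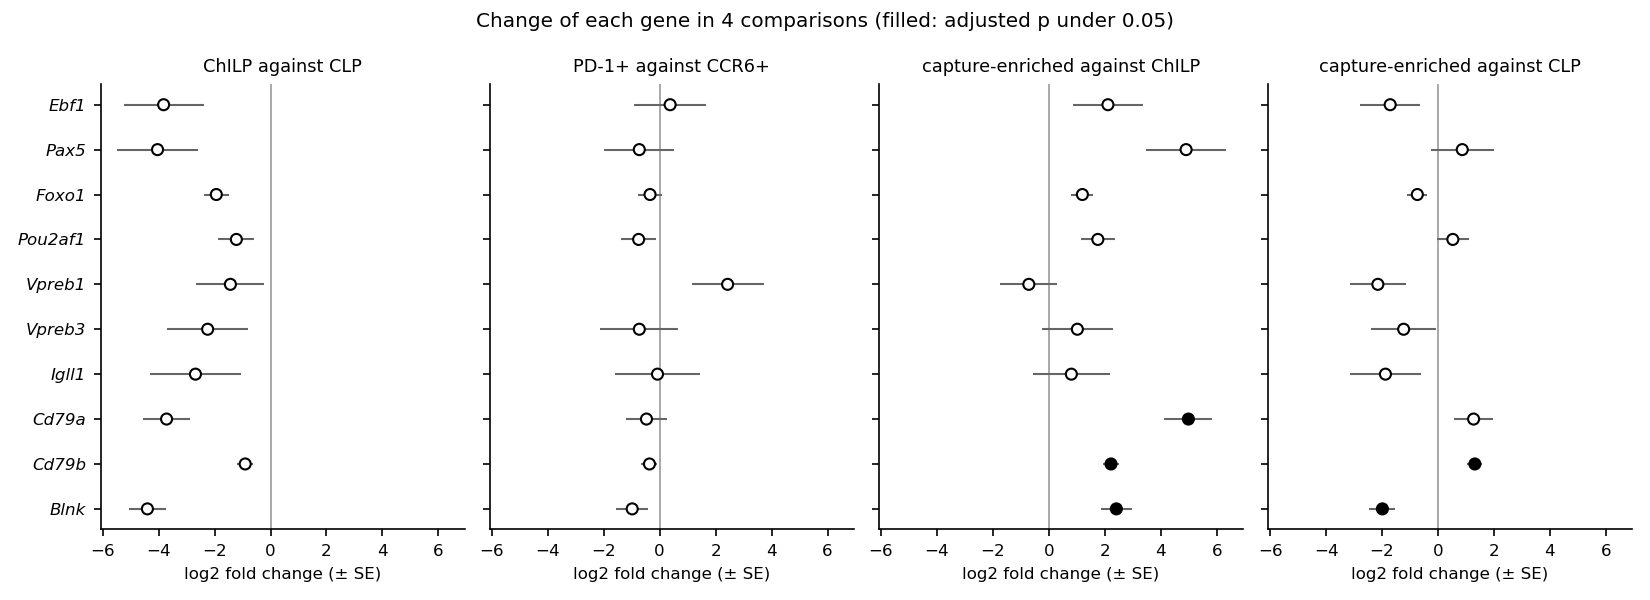
Log2 fold change of each gene (horizontal axis, ± SE from edgeR) in the 4 comparisons, first-named group over second; filled points have an adjusted p under 0.05 over all genes. Filled are Cd79a, Cd79b and Blnk higher in capture-enriched cells than in ChILP, and Cd79b higher and Blnk lower in capture-enriched cells than in CLP.

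PD-1+ against CCR6+ asked which genes set the 2 kinds of ILC progenitor apart within 1 route of enrichment. None of the 10 genes passed (edgeR, background 0% of genes), none had an unadjusted p under 0.05 (background 5.88%), and DESeq2 and limma called none. Pax5, Vpreb3, Cd79a, Cd79b and Blnk lay lower in PD-1+ cells without overlap, as did 14.2% of all genes, and Vpreb1 lay higher without overlap, as did 19.0%. Vpreb1 had a log2 fold change of 2.43 (SE 1.29), which ran from 1.09 to 4.08 as 1 library was left out, and Blnk one of -0.98 (SE 0.57), which ran from -2.25 to -0.35. Their median was -0.42, beside 0.01 over all genes. Myb, a progenitor factor, averaged 18.2 RPKM in PD-1+ cells and 9.67 in CCR6+ cells, Lef1, a partner of TCF-1, 12.8 and 4.198, and Irf8, a factor of B and dendritic cells, 186.5 and 260.6; none passed. Dntt averaged 30.4 RPKM in PD-1+ cells and 7.74 in CCR6+ cells (log2 fold change 1.87, SE 0.58), which did not pass either, and the 3 signalling genes with the lowest p, Lyn, Btk and Ptpn6, had log2 fold changes of -0.54, -0.52 and -0.45.

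Capture-enriched cells, the mean of PD-1+ and CCR6+, were then set against ChILP to ask whether B transcripts returned; 3 genes of the set did so by the test. Cd79a, Cd79b and Blnk rose, 3 of 10 genes, where 6.06% of all genes rose by the same rule (edgeR, adjusted over all genes). Cd79a rose to 108.6 ± 20.0 RPKM in capture-enriched cells (SD, n = 4), against 3.98 ± 4.87 in ChILP (SD, n = 2), with a log2 fold change of 4.99 (SE 0.86, adjusted p = 0.0134). That value was 7.87 without ChILP replicate 1 and 4.11 without ChILP replicate 2. Cd79b rose to 123.4 ± 17.3 against 31.2 ± 13.1 RPKM, with a log2 fold change of 2.22 (SE 0.28, adjusted p = 0.00690). Blnk rose to 11.4 ± 5.86 against 2.43 ± 0.229 RPKM, with a log2 fold change of 2.41 (SE 0.56, adjusted p = 0.0320), and did not pass without either ChILP library (adjusted p = 0.1305 and 0.139) or without CCR6+ replicate 2 (adjusted p = 0.0624). Without PD-1+ replicate 2 the Blnk value was 1.78, and Blnk passed; without PD-1+ replicate 1 it was 2.81. Pax5 and Pou2af1 lay higher in all 4 capture-enriched libraries than in both ChILP libraries without passing, their log2 fold changes being 4.91 (SE 1.44, adjusted p = 0.0634) and 1.75 (SE 0.60, adjusted p = 0.0977); 5 of the 10 genes lay higher without overlap, as did 12.6% of all genes. Foxo1, at 1.20 (SE 0.39), and Ebf1, at 2.11 (SE 1.25), overlapped with ChILP.

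Surrogate light chain genes and Vpreb3 did not pass in that comparison. Their log2 fold changes were 0.80 (SE 1.37) for Igll1, 1.02 (SE 1.26) for Vpreb3 and -0.72 (SE 1.02) for Vpreb1, with 1 ChILP library at 0 for Igll1 and Vpreb3. Without ChILP replicate 1, Ebf1, Vpreb3 and Igll1 passed beside Cd79a and Cd79b, and the Vpreb1 value turned to 0.45; without PD-1+ replicate 1, Foxo1 and Pou2af1 passed beside Cd79a, Cd79b and Blnk. Across the 10 genes the median log2 fold change was 1.93, beside -0.10 over all genes, and 5.30 without ChILP replicate 1 and 1.44 without ChILP replicate 2. Without ChILP replicate 1, no ChILP read of Ebf1, Pax5, Vpreb3 or Igll1 remains, so their fold changes there have no upper limit.

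Capture-enriched cells against CLP gave a split set; this comparison shares its libraries with those above. Cd79b rose to 123.4 ± 17.3 RPKM in capture-enriched cells against 61.1 ± 11.3 in CLP, with a log2 fold change of 1.32 (SE 0.26, adjusted p = 0.0170 with edgeR). Blnk fell to 11.4 ± 5.86 against 54.2 ± 24.6 RPKM, with one of -1.99 (SE 0.47, adjusted p = 0.0286). Neither passed without CLP replicate 1 (adjusted p = 0.0983 for Cd79b and 0.0503 for Blnk) or CLP replicate 2 (0.107 and 0.237), and Blnk did not pass without either CCR6+ library (0.0757 and 0.0549). Without PD-1+ replicate 2 the Blnk value was -2.62, and Blnk passed. Of the 10 genes 1 thus rose and 1 fell, where 7.53% of all genes rose and 6.85% fell. Cd79a and Pax5 also lay above CLP without overlap but missed the threshold, at log2 fold changes of 1.27 (SE 0.68) and 0.87 (SE 1.12); higher without overlap were 3 of the 10 genes and 13.4% of all genes. Ebf1, Foxo1, Vpreb3, Igll1 and Blnk lay below CLP without overlap, 5 of 10 genes, as did 32.3% of all genes. Their log2 fold changes were -1.71, -0.74, -1.23, -1.88 and -1.99. Overlap was judged on RPKM, scaled by library total alone, whereas fold changes came from the fit with its own scaling. Foxo1 averaged 6.29 RPKM in capture-enriched cells and 13.0 in CLP, but lay 1.67-fold lower in the fit.

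By role, the make-up of the summed level differed between the capture-enriched and the CLP libraries, while the 2 ChILP libraries were unlike each other. Signal chains held 75.4% to 82.3% of the summed RPKM of the 10 genes in PD-1+ and CCR6+ libraries, 46.7% and 71.0% in ChILP and 37.2% and 36.5% in CLP. Surrogate light chain genes with Vpreb3 held 11.1% to 12.4% in PD-1+ and CCR6+ libraries, 42.9% and 5.58% in ChILP and 38.5% and 32.1% in CLP. The 2 ChILP libraries thus differed from each other more than the 4 capture-enriched libraries did. Per RPKM of Ebf1 there were 22.8 to 81.4 RPKM of Cd79a in the PD-1+ and CCR6+ libraries, 4.12 in ChILP replicate 1, and 5.09 and 3.42 in CLP; ChILP replicate 2 had no Ebf1 read. Pax5 per Ebf1 was 0.646 to 3.38 in PD-1+ and CCR6+ libraries, 0.151 in ChILP replicate 1, and 0.243 and 0.147 in CLP.

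**Figure D3:**
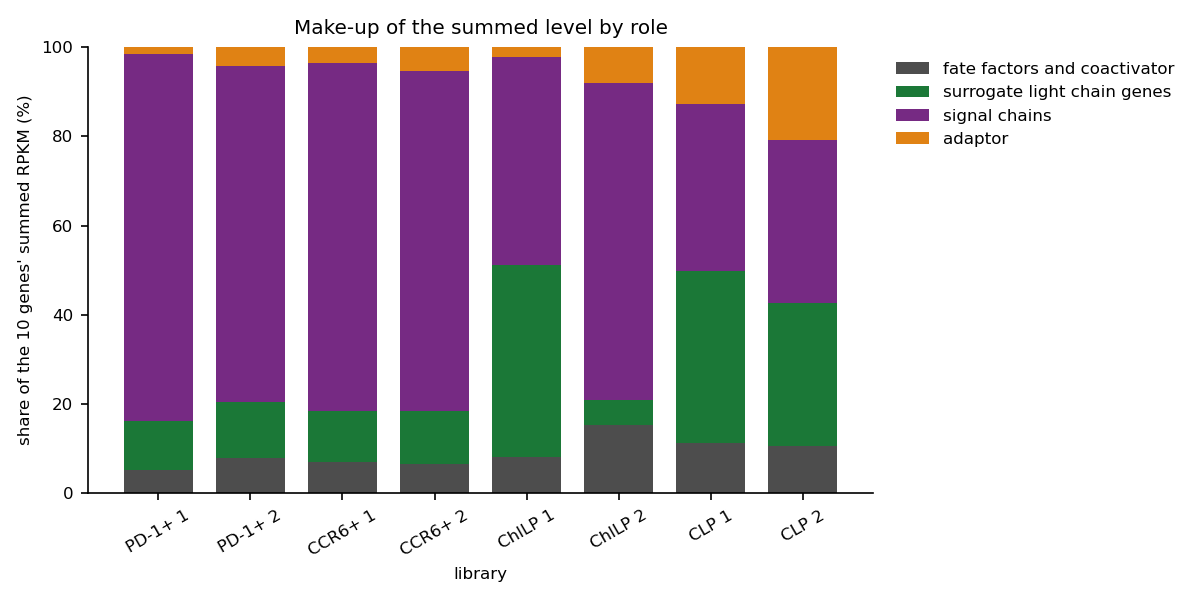
Share of the summed RPKM of the 10 genes (vertical axis, %) held by each role in each library. The role of surrogate light chain genes includes Vpreb3. Signal chains (Cd79a, Cd79b) hold 75.4% or more in the 4 PD-1+ and CCR6+ libraries, against 37.2% and 36.5% in CLP.

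Genes of other stages did not all move in the same direction as these results. Rearrangement genes were not high again: summed over Rag1, Rag2 and Dntt, levels were 46.8 and 15.1 RPKM in PD-1+ cells, 4.22 and 11.4 in CCR6+ cells, 59.5 and 71.3 in ChILP, and 841.3 and 1485 in CLP. Dntt made up most of each sum, at 46.1 and 14.8 RPKM in PD-1+ cells and 817.6 and 1449 in CLP. In capture-enriched cells Rag2 and Dntt fell against ChILP, as did 6.19% of all genes. Their log2 fold changes were -3.10 (SE 0.69) and -1.82 (SE 0.46). All 3 fell against CLP, as did 6.85% of all genes, with values of -6.87 for Rag2, -5.90 for Dntt and -7.12 for Rag1. Of the mature B cell markers, Ms4a1 and Fcer2a were singled out after their values were seen. Ms4a1 (CD20) stood at 9.53 and 20.9 RPKM in PD-1+ cells, 19.0 and 29.6 in CCR6+ cells, 1.41 and 0 in ChILP, and 0.136 and 0 in CLP. Fcer2a (CD23) stood at 10.04 and 22.5 RPKM in PD-1+ cells, 26.1 and 20.9 in CCR6+ cells, 0.391 and 0 in ChILP, and 0.125 and 0 in CLP. Both markers were at 1.41 RPKM or below in every lineage-depleted library and at 9.53 or above in all 4 capture-enriched libraries.

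Of the 14 mature B cell markers, 10 rose against ChILP, as did 6.06% of all genes, and none fell. All 14 lay higher without overlap, as did 12.6% of all genes, and the median log2 fold change was 3.98. Against CLP, 7 rose, as did 7.53% of all genes, and none fell, with a median of 3.02. Blk, at 7.46 RPKM in capture-enriched cells and 26.7 in CLP, and Cd72, at 29.7 and 44.3, had log2 fold changes below 0. These were -1.55 and -0.26, without passing. Cd37 and Cd72, the markers with the highest means, are also expressed by earlier cells. The list summed to 297.9 and 451.3 RPKM in PD-1+ cells and 434.6 and 436.4 in CCR6+ cells. Its sums were 132.3 and 157.9 RPKM in ChILP and 238.4 and 292.3 in CLP. Cd37 alone gave 83.9 and 125.2 RPKM of the ChILP sums. In ChILP replicate 2, 5 members had no read, among them Ms4a1 and Fcer2a, which had 53 and 16 reads in replicate 1. Cd22, Cd37 and H2-DMb2 stood higher in ChILP replicate 2 than in replicate 1. In CLP replicate 2, 3 members had no read. The part of mature B cell transcripts in the higher Cd79a, Cd79b and Pax5 of the capture-enriched libraries was not tested. PD-1+ replicate 1 had the lowest sum of these markers and of the 10 genes among the 4 capture-enriched libraries, and the highest sum of ILC progenitor genes, 1762 RPKM against 245.7 to 483.5 in the other 3.

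**Figure D4:**
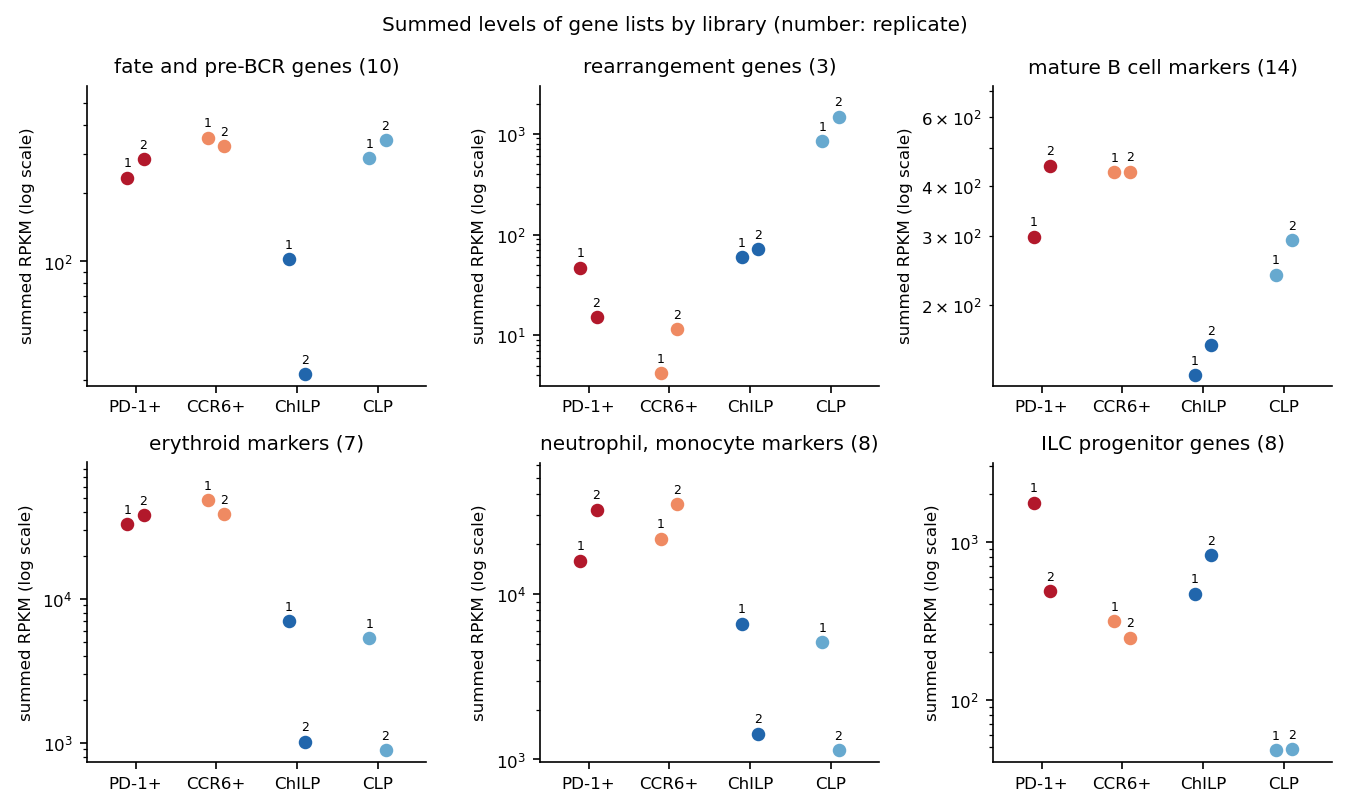
Summed RPKM (vertical axes, log scale) of 6 gene lists in each library, with the replicate number above each point. Rearrangement genes, whose sum is mostly Dntt, stay at 46.8 RPKM or below in PD-1+ and CCR6+ libraries, against 841.3 and 1485 in CLP. Mature B cell, erythroid and neutrophil markers are highest in the PD-1+ and CCR6+ libraries.

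Most signalling genes of the receptor rose with the signal chains. Of 15, 10 rose against ChILP, as did 6.06% of all genes, and none fell by the test, with a median log2 fold change of 1.45. Btk, at 17.5 RPKM in capture-enriched cells and 29.2 in ChILP, and Dapp1 had log2 fold changes below 0, -0.50 and -0.17, without passing. Neutrophil and monocyte transcripts were also higher in these libraries, and their part in the rise was not tested. Also in the mature B cell list are 5 of the 15, Cd22, Cd72, Blk and Bank1 among them. Bank1, a B cell scaffold, averaged 10.75 RPKM in capture-enriched cells and 0.684 in ChILP (log2 fold change 4.22, SE 0.62, adjusted p = 0.00949 with edgeR), and Lyn, a Src kinase that myeloid cells share, 39.25 and 16.3. Cd72, Ptpn6, Plcg2, Blk, Cd22, Pik3cd and Pik3ap1 rose as well. Against CLP, 5 rose and Btk fell, where 7.53% of all genes rose and 6.85% fell. Those that rose include Lyn, Bank1, Cd22 and Ptpn6, with log2 fold changes of 1.16 to 4.32. Of the 17 upstream factors, Pou2f2, which encodes the octamer factor Oct-2, and Irf8 rose against ChILP and Myb fell. By the same rule 6.06% of all genes rose against ChILP and 6.19% fell. Pou2f2 averaged 12.7 RPKM in capture-enriched cells and 2.24 in ChILP (log2 fold change 2.73, SE 0.51), and Irf8 223.5 and 130.0 (1.02, SE 0.22). Against CLP, Ikzf3 rose, and Myb, Mef2c, Bcl11a and Tcf3 fell; Tcf3 averaged 59.4 RPKM in capture-enriched cells and 116.0 in CLP.

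Genes most like a member were sought by the distance between profiles over the 8 libraries, as the root mean square difference of log2(RPKM + 1) after centring. Nearest to Ebf1 were H2-Ob at a distance of 0.48, Uchl1 at 0.54 and Fam167a at 0.56, nearest to Cd79a were Nupr1 at 0.86, Tnfrsf13c at 0.97 and Ifi27l2a at 1.08, and nearest to Blnk were Cox6a2 at 0.49, AA467197 at 0.50 and Mir147 at 0.51. RefSeq places Mir147 inside AA467197 on 1 chromosome, so the reads of these 2 entries cannot be told apart and they are not separate neighbours. Among the 10 genes, Foxo1 was nearest to Ebf1 (0.67), Pax5 to Cd79a (1.295) and Ebf1 to Blnk (0.79). Ebf1 and Blnk thus had close neighbours among genes highest in CLP, such as H2-Ob, an MHC class II chaperone subunit, at 63.95 and 113.7 RPKM in CLP and 9.002 to 50.6 elsewhere. Cd79a had a neighbour in Tnfrsf13c, the BAFF receptor of B cells, at 8.30 to 22.3 RPKM in PD-1+ and CCR6+ libraries, 3.02 and 0.476 in ChILP, and 8.24 and 10.3 in CLP.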

How the data were processed

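Total RNA of sorted cells was made into Smart-seq2 libraries, which amplify polyadenylated RNA and carry no molecular identifiers, and read at 50 bp, per the labels' protocols; limits from a count of 0 cover counting error only. CASAVA 1.8.4, Bowtie2 2.2.2 and the build mm9 are named in the submitters' processing notes; the counter, the strand setting and the annotation release were not given in the sources used here. The authors deposited whole-number read counts and RPKM values for 29257 RefSeq transcripts per library; RPKM is the deposited count over length and 1 library total, from the values. Each gene was represented by its transcript with the largest mean count.

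The test on these counts was edgeR's (4.0.16, R 4.3.3) two-sided robust quasi-likelihood test after TMM scaling, all 8 libraries and 4 groups in 1 fit, on 13619 genes kept by filterByExpr at a minimum of 10 reads, with Benjamini-Hochberg adjustment; the threshold was an adjusted p of 0.05. Capture-enriched is the mean of PD-1+ and CCR6+. Levels, means, SD and overlap rest on RPKM, without TMM scaling. All 10 genes were named; of pathway lists, called genes or else up to 3 with the lowest p at a mean of at least 5 RPKM; of marker lists, summed levels and the 2 genes with the highest mean. Ms4a1, Fcer2a, H2-DMb2, Tnfrsf17, Sdc1, Kit, Ly6a, Flt3, Ccr6, Vpreb2 and, for ChILP against CLP, Tcf3 were named after their values were seen. A called gene of the lists is not reported here by name. Spi1, Mzb1 and Ahsp of the lists were not matched by symbol. Members and lists were chosen with earlier results of these data known. Alternatives used DESeq2 1.42.0 and limma 3.58.1.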

Additional observations from a re-analysis of the deposited data

How the results depend on the processing

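Of 120 values per gene and alternative for ChILP against CLP, none reversed; 5 of 120 did for PD-1+ against CCR6+, 2 of 140 for capture-enriched cells against ChILP and 0 of 140 against CLP. For ChILP against CLP, edgeR called 0 of the 10 genes and 3 of all genes. DESeq2's Wald test called 4 of the 10 and 263 of all genes. By limma, log2(RPKM + 1) gave 2 of the 10 and 54 of all, and log2(RPKM + 0.1) gave 1 and 49. With edgeR, no filter gave 1 of the 10 and 63 of all, and only the libraries compared 1 and 59. For capture-enriched cells against ChILP, with 3 of the 10 and 1668 of all genes called, DESeq2 called 6 and 2831. Against CLP, with 2 of the 10 called, limma on log2(RPKM + 1) called 4 of the 10 and 3394 of all genes. The fit of only the libraries compared called 4 and 1700. Cd79a had an adjusted p of 0.0523 against ChILP with no filter and Blnk one of 0.0588 with only the libraries compared (edgeR). Leaving out 1 library gave, on the log2 scale for PD-1+ against CCR6+, -0.15 to 1.21 for Ebf1, -1.18 to 0.15 for Foxo1 and -1.16 to 0.71 for Igll1. For capture-enriched cells against ChILP it gave -1.54 to 0.45 for Vpreb1 and -0.19 to 8.995 for Igll1. The 8.995 rests on ChILP replicate 2, without an Igll1 read, and so has no upper limit. The cause of the other spreads was not tested. The median of the 10 genes for ChILP against CLP was -4.05 with limma on log2(RPKM + 0.1).

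The labels tie same-numbered libraries of different groups by number only. Their deviations correlated across genes at 0.094 for ChILP and CLP, 0.0796 for PD-1+ and CCR6+, and -0.106 to -0.00909 across the 2 routes. Single lists could still move together. Erythroid sums in replicates 1 and 2 were 7026 and 1018 RPKM in ChILP and 5350 and 893 in CLP. They moved in opposite directions in PD-1+ (32918 and 38004) and CCR6+ cells (48344 and 38730.5). Whether same-numbered libraries share a preparation was not tested. With the replicate block the counts of members called stayed at 0, 0, 3 and 2 in the 4 comparisons, and Igll1 turned to 0.46 for PD-1+ against CCR6+; the block moved the count of all genes to 0, 0, 1254 and 1587, against 3, 0, 1668 and 1959. Counts over all genes for these 4 comparisons were 263, 128, 2831 and 3086 with DESeq2, 54, 0, 2793 and 3394 with limma on log2(RPKM + 1), 49, 0, 2620 and 3225 on log2(RPKM + 0.1), and 63, 0, 1824 and 2088 with no filter; only the libraries compared gave 59, 0, 1177 and 1700, DESeq2 size factors 0 for ChILP against CLP, and leaving out 1 library 0 to 24, 0 to 36, 248 to 1896 and 176 to 2247. Read counts were low for Pax5, at 70 or fewer per library, and for Vpreb1, with 3 in CCR6+ replicate 2; their part in the missed calls was not tested.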

Other observations

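Of 8 plasma cell genes, 2 rose in capture-enriched cells against ChILP and 1 against CLP, where 6.06% and 7.53% of all genes rose, and none fell. Igj, the joining chain of secreted antibody, stood at 242.3 and 603.1 RPKM in PD-1+ cells, 296.6 and 543.1 in CCR6+ cells, 8.26 and 33.6 in ChILP, and 35.8 and 48.1 in CLP. It rose against ChILP (log2 fold change 4.59, SE 0.74, adjusted p = 0.0118 with edgeR) and against CLP (3.65, SE 0.70, adjusted p = 0.0152), the 1 gene called in both; Tnfrsf17, a survival receptor of plasma cells without a read in either ChILP library, rose against ChILP and did not pass against CLP. Xbp1, a secretory factor that other cells also use, stood at 93.8 to 179.1 RPKM in PD-1+ and CCR6+ libraries, 135.8 and 102.8 in ChILP, and 110.0 and 126.5 in CLP. Sdc1 (CD138), which plasma cells carry on their surface, averaged 20.9 RPKM in capture-enriched cells, 14.98 in ChILP and 37.8 in CLP.

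Plasmacytoid dendritic cell genes, some of which B lineage cells share, summed to 632.9 and 867.2 RPKM in PD-1+ cells, 951.0 and 957.6 in CCR6+ cells, 399.2 and 410.1 in ChILP, and 833.7 and 1246.5 in CLP. Of 10, 6 rose in capture-enriched cells against ChILP and none fell, where 6.06% of all genes rose. Against CLP 2 rose and 1 fell, where 7.53% of all genes rose and 6.85% fell. Ly6d, the highest of them, stood at 195.3 and 358.2 RPKM in PD-1+ cells, 345.9 and 383.6 in CCR6+ cells, 91.7 and 123.1 in ChILP, and 396.3 and 712.4 in CLP. Irf8, the next, is described among the upstream factors above.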
